A study of Homo sapiens with 8 samples.

Results

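The comparison described here set the expression level of each gene in KYSE30 cells beside its level in KYSE510 cells. Both are established lines grown from human esophageal squamous cell carcinomas, and the labels give both as WT in genotype. Each line was sequenced in 4 libraries, 2 from cells with a control short hairpin RNA (shNC) and 2 from cells with a hairpin against the LIM-homeodomain factor LHX2 (shLHX2). Hairpins were delivered with a lentiviral vector, so all 8 libraries come from infected cells, and uninfected cells were not analysed here. For each line there is 1 table, with 1 mean count per gene over its 4 libraries. Matching both tables by Ensembl identifier left 22469 genes out of 29100 listed in either, and these are the genes compared. The KYSE30 table lists 26008 genes and that of KYSE510 lists 25561.

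Because each value pools 2 shNC and 2 shLHX2 libraries, it is the level of the line and not of the knockdown. Values of single libraries were not used here, so no spread between replicates, test or p-value could be given. A gene that answered to the knockdown enters at the average of both states, and how far this moved any level was not tested. Labels give no date or batch of preparation. If the lines were handled apart, that handling and the line cannot be told apart.

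Each mean count was scaled so that its table summed to 1000000, and this level is written in CPM (counts per 1000000). The difference of a gene is log2(level + 1) in KYSE30 minus the same in KYSE510, so a positive difference means more in KYSE30. A gene is called at least 2-fold or 8-fold higher at a difference of 1 or 3 in size, and within 2-fold below 1. Because of the added 1, plain levels can lie further apart than the call says, most so near 1 CPM. Ratios given below are those of the plain levels. The sums were 18937970 mean counts in KYSE30 and 19198673 in KYSE510. The lowest values that recur in the tables are what a single read in a single library adds to the mean, about 0.0131 CPM in KYSE30 and 0.0129 in KYSE510. From these, the size factors of the libraries ran from 0.946 to 1.08 in KYSE30 and from 0.902 to 1.201 in KYSE510. Poisson intervals (95%) rest on the approximate read totals these imply and cover counting error only. Levels are not divided by gene length, so each difference compares a gene with itself between the lines. Where levels of unlike genes are ranked, called low or summed over a list, they also depend on gene length.

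The stratified squamous epithelium of the esophagus is built from basal cells that divide on the basement membrane and from suprabasal cells that flatten and cornify as they move up. Basal cells are known for the keratin pair KRT5 and KRT14 and for the transcription factor TP63, suprabasal cells of the esophagus for KRT4, KRT13 and involucrin. Simple epithelia of a single layer use KRT8, KRT18, KRT19 and KRT7 instead. Carcinoma lines keep these programs to different degrees. They also differ in the DNA segments they have gained or lost, and in constitutive activity of stress pathways such as that of NRF2, the factor that induces antioxidant and detoxifying enzymes.

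Among 14578 genes at 1 CPM or more in either line, 2161 were at least 2-fold higher in KYSE30, which is 14.8% of them, and 1845 were at least 2-fold higher in KYSE510, which is 12.7%. The other 10572 genes, 72.5%, lay within 2-fold. At least 8-fold higher were 212 genes in KYSE30 (1.45%) and 242 genes in KYSE510 (1.66%). Counts for each gene list below are to be read beside these shares of all measured genes, and no list was tested against them. The median difference was 0.07, and the quartiles were -0.52 and 0.64. Across these genes, which are not independent replicates and share their libraries, the levels of both lines had a Pearson correlation of 0.856 and a Spearman correlation of 0.866 on the log2 scale. The limit of 2-fold cuts through a continuous range. CDC26 at 45.4 and 22.2 CPM and DLGAP5 at 53.4 and 108 CPM, KYSE30 given first, were just called. VPS13C at 119 and 59.2 CPM and HSF2 at 18.6 and 38.2 CPM just missed the call. Their plain levels lie slightly more than 2-fold apart, and the added 1 brings their differences below the limit.

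**Figure D1:**
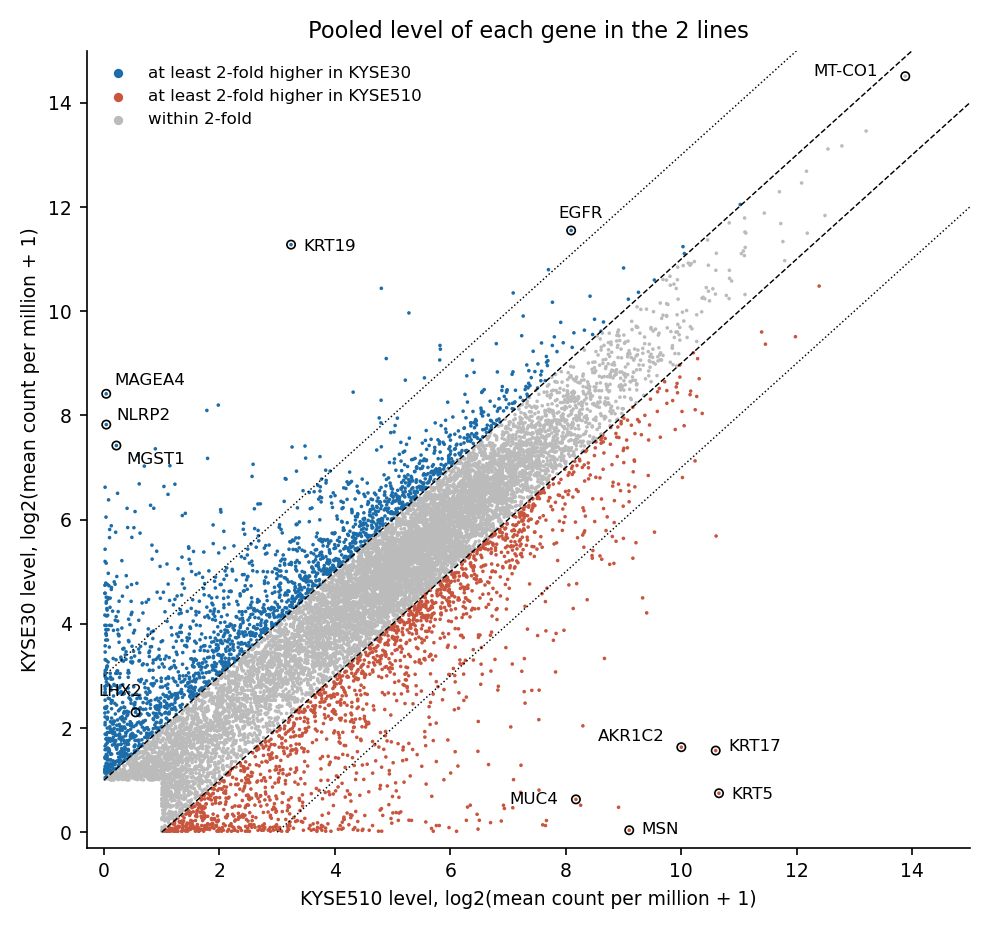
Pooled level of 14570 genes (Y-linked genes and XIST left out) in KYSE510 on the horizontal axis and KYSE30 on the vertical axis, both as log2(CPM + 1), each point 1 gene. Dashed lines mark 2-fold and dotted lines 8-fold differences, and MAGEA4, KRT19, EGFR, KRT5, KRT17 and MSN sit far from the diagonal, while MT-CO1 lies between the dashed lines. Of all 14578 measured genes, 72.5% were within 2-fold.

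The protein-coding genes with the largest differences, among those at 30 CPM or more in the higher line, came from unlike families in each line. In KYSE30 the list was led by MAGEA4, a testis antigen of the MAGE family, at 340.4 CPM in KYSE30 and 0.0270 in KYSE510. The KYSE510 value of MAGEA4 is worth about 2 reads over the 4 libraries, with an interval of 0.00349 to 0.0951 CPM. KRT19, a keratin of simple epithelium and of reserve cells, stood at 2483 CPM in KYSE30 and 8.45 in KYSE510, a ratio of 294. NLRP2, a member of the NOD-like receptor family, was at 226 CPM in KYSE30 and 0.0277 in KYSE510, again about 2 reads in KYSE510. MGST1, a membrane-bound glutathione transferase, was at 171 CPM in KYSE30 and 0.160 in KYSE510. Next came FKBP10, a prolyl isomerase that assists collagen folding, with 149.9 and 0.505 CPM, CTAG2, a testis antigen, with 97.5 and 0.0133 CPM, and EEF1A2, the elongation factor of muscle and neurons, with 163 and 0.853 CPM. Others of the 15 were the guanine deaminase GDA (129 and 0.623 CPM), the proteoglycan SPOCK1 (273 and 2.44 CPM), the peroxiredoxin PRDX2 (82.3 and 0.0566 CPM), the melanosome linker MLPH (89.8 and 0.177 CPM), the calcium-binding protein CAPS (293 and 2.95 CPM), the matrix protein FREM2 (102 and 0.527 CPM) and the glutamate transporter SLC1A6 (65.2 and 0.0245 CPM). Differences over the genes named here ran from 6.01 to 8.38.

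In KYSE510 the 15 largest differences ran from -6.48 to -9.91. KRT5, the type II keratin of basal cells, was at 0.679 CPM in KYSE30 and 1612 in KYSE510, and KRT17, a keratin of basal and wounded epithelium, at 1.96 CPM in KYSE30 and 1549.6 in KYSE510. MSN, which encodes moesin and ties actin filaments to the plasma membrane, was at 0.0265 CPM in KYSE30 and 548 in KYSE510. The KYSE30 value of MSN corresponds to about 2 reads, with an interval of 0.00325 to 0.0953 CPM. Aldo-keto reductases followed, AKR1C1 at 0.393 and 482 CPM, AKR1C2 at 2.10 and 1025 CPM and AKR1B1 at 0.103 and 193 CPM. AKR1C1 and AKR1C2 are near-identical in sequence, so how reads were divided between them is uncertain, but both were low in KYSE30. The others were the extracellular protein FBLN2 (0.432 and 305 CPM), the membrane mucin MUC4 (0.548 and 288 CPM), the complement protease C1S (0.0924 and 199.7 CPM), the mitochondrial aldehyde dehydrogenase ALDH2 (0.168 and 202 CPM), the kynureninase KYNU (0.751 and 185 CPM), the protease inhibitor and envelope precursor CSTA (0.161 and 117 CPM), the ligand WNT5A (0.384 and 135 CPM), the stress-induced NUPR1 (0.136 and 103 CPM) and ceruloplasmin CP (0.371 and 122 CPM).

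Some genes were at or near the level of single reads in a line while well covered in the other. At 10 CPM or more in KYSE30 and at most 0.1 in KYSE510 were 47 genes, 40 of them protein-coding. The reverse held for 36 genes, 31 of them protein-coding. Beside those already named, the first set held ITGBL1 at 57.99 and 0.0920 CPM, the imprinted gene MEST at 49.4 and 0.0688 CPM and the cystatin CST6 at 35.7 and 0.0133 CPM. The second held the chemokine CXCL1 at 0.0419 and 88.3 CPM, the glycine decarboxylase GLDC at 0.0122 and 67.99 CPM, the bradykinin receptor BDKRB2 at 0.0633 and 62.04 CPM, the metalloreductase STEAP4 at 0.0929 and 55.1 CPM and the monocarboxylate transporter SLC16A7 at 0.0133 and 51.2 CPM. A fold is not given for these genes, since their lower value rests on a handful of reads.

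The squamous label was checked against defining markers. TP63, the master factor of stratified epithelium, was at 124 CPM in KYSE30 and 400.1 in KYSE510. SFN, the epithelial 14-3-3 protein stratifin, was at 183 and 531 CPM, and the desmosomal cadherin DSG3 at 49.6 and 151 CPM. KRT14, the partner of KRT5, was low in both lines (7.99 and 6.58 CPM), and KRT6A was at 24.2 and 41.99 CPM. S100A2, a calcium-binding protein of basal keratinocytes, was at 8.37 and 134 CPM. KRT5 and KRT17 were thus at under 2 CPM in KYSE30 while TP63, DSG3 and SFN were present in both lines. PKP1, a plakophilin of squamous desmosomes, was at 0.0529 and 1.78 CPM, which is about 4 reads in KYSE30. The markers of simple epithelium KRT8 and KRT18 were present in both lines. CDX2, the intestinal factor, was at 3.80 CPM in KYSE30 and is not listed in the KYSE510 table, VIL1 was at or under 0.215 in both lines, and TFF3 is listed in neither.

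Most markers of other cell types were below 1 CPM in both lines or missing from at least 1 table. Some, such as EGFL7, TUBB3 and AGR2, were well above that level. Of 18 lymphoid and myeloid markers, 9 are in both tables and 4 reached 1 CPM. PTPRC, the pan-leukocyte marker, was at 0.318 and 0.0953 CPM. The summed level of the list was 21.4 CPM in KYSE30, 14.7 of it from CSF1R, and 24.8 in KYSE510, 19.7 of it from CD68. Of 11 endothelial markers, 5 reached 1 CPM and none of these was called at 2-fold. The plain levels of ESAM, 1.60 and 0.428 CPM, did lie further apart than that. The list summed to 60.2 CPM in KYSE30 and 66.8 in KYSE510, most of it from EGFL7 at 48.4 and 50.6 CPM, while PECAM1 was at 0.0265 and 0.191 CPM and CDH5 at 8.27 and 12.4 CPM. Fibroblast markers, 4 of them measured and 2 higher in KYSE510, summed to 18.04 CPM in KYSE30 and 51.5 in KYSE510, COL1A1 giving 14.2 and 38.5 of it. COL1A2, the obligate partner chain, was at 0.0140 and 0.0595 CPM, PDGFRA at 0.0122 and 0.0137 CPM, and FAP at 0.0652 and 7.25 CPM. Among 15 neuronal and neuroendocrine markers, 3 of them measured and 2 higher in KYSE510, TUBB3 was at 80.4 and 73.02 CPM, NCAM1 at 0.621 and 5.23 CPM and ENO2 at 1.47 and 22.6 CPM, while CHGA, CHGB, SYP and SNAP25 were at 0.305 or less in both lines. Of 5 measured columnar markers, 3 were higher in KYSE30 and 2 in KYSE510. AGR2, a secretory disulfide isomerase, was at 545 CPM in KYSE30 and 28.7 in KYSE510, AGR3 at 5.84 and 0.206 CPM and GATA4 at 7.29 and 0.0783 CPM, while GATA6 (12.1 and 44.3 CPM) and the immunoglobulin transporter PIGR (0.0649 and 5.90 CPM) were higher in KYSE510.

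Keratins held some of the widest differences. Of 18 keratin genes of stratified epithelium, 11 were measured, 2 of them at least 2-fold higher in KYSE30 and 4 in KYSE510. All keratin genes together took 0.888% of the summed counts in KYSE30 and 0.845% in KYSE510, so that the share was alike and its makeup was not. KYSE510 held, besides KRT5 and KRT17, more KRT15, a basal keratin, at 75.5 CPM in KYSE30 and 509.6 in KYSE510, and more KRT16, a keratin of hyperproliferation, at 5.94 and 37.1 CPM. KRT6B, an inducible keratin, stood at 34.7 CPM in KYSE510 and is not listed in the KYSE30 table. KRT6A, KRT6B and KRT6C share most of their sequence, so their separate values are uncertain. KYSE30 held more KRT13, the suprabasal keratin of esophagus, at 246 CPM in KYSE30 and 32.9 in KYSE510, and more KRT80 at 738 CPM in KYSE30 and 149.9 in KYSE510. KRT4, the usual partner of KRT13, did not follow it, at 10.2 and 8.99 CPM.

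Of 8 simple keratins, 6 were measured, 3 higher in KYSE30 and 1 in KYSE510. KRT8 was at 3318 and 1824 CPM and KRT18 at 1878 and 1048 CPM, differences of 0.86 and 0.84. KRT19 and KRT7 went opposite ways. KRT7, a type II keratin of glands and ducts, was at 50.5 CPM in KYSE30 and 1557 in KYSE510, a difference of -4.92 against 8.04 for KRT19. KRT23 was at 23.8 and 10.8 CPM, and KRT86, whose near copy KRT81 makes its value uncertain, at 4.56 and 0.384 CPM.

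**Figure D2:**
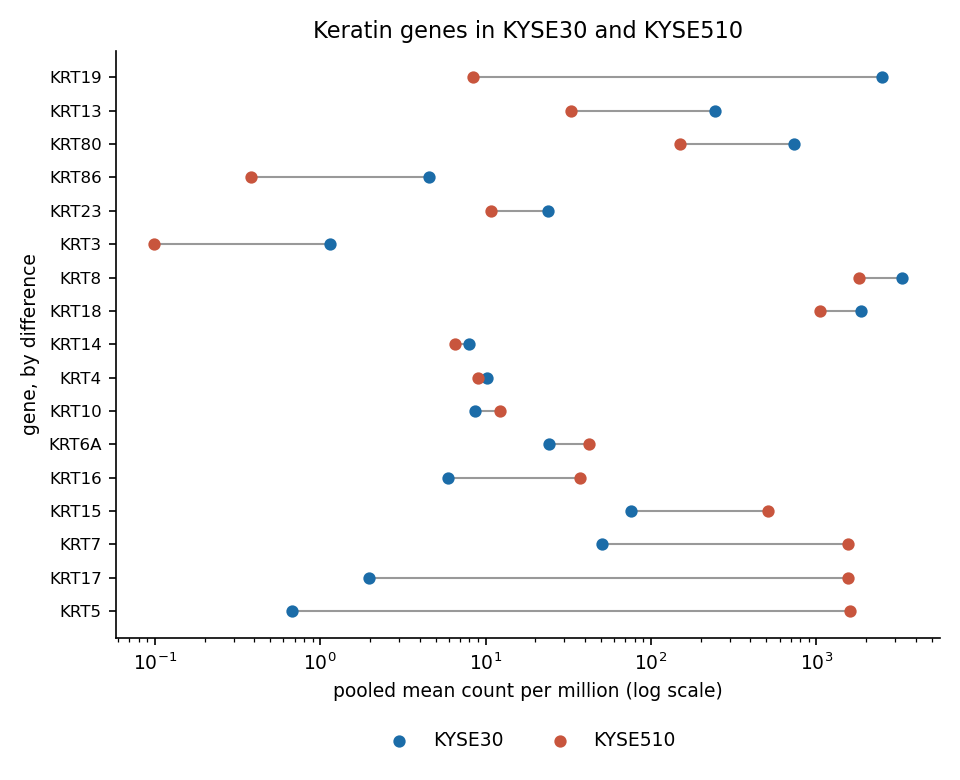
Level of the 17 measured keratin genes of both lists in KYSE30 (blue) and KYSE510 (red), in CPM on a log axis, ordered by difference with the genes higher in KYSE30 at the top. The line between both points is the gap between the lines; it is widest for KRT19 (8.04) at the top and for KRT5 (-9.91) and KRT17 (-9.03) at the bottom, while KRT14 and KRT4 nearly coincide.

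Transcription factors of the squamous lineage were divided as well, with 5 of 23 measured genes higher in KYSE30, 7 in KYSE510 and 11 within 2-fold. GATA3, a factor of luminal and stratified epithelia, was at 109 CPM in KYSE30 and 12.6 in KYSE510. SOX2, a lineage factor of foregut squamous cells, was at 66.1 CPM in KYSE30 and 15.4 in KYSE510, and FOXE1 at 33.8 and 7.27 CPM, BARX2 at 14.8 and 4.17 CPM and KLF4 at 68.3 and 31.4 CPM. Higher in KYSE510 beside TP63 were PITX1 (7.04 and 66.5 CPM), RUNX1 (27.9 and 126 CPM) and the ETS factor EHF (18.7 and 82.8 CPM). SOX2 and TP63, which lie near each other on chromosome 3q, had opposite signs, 2.03 and -1.68.

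Genes of the cornified envelope, the protein shell of terminally differentiated squamous cells, were found on both sides. Of 28 listed, 16 were measured, 8 higher in KYSE30 and 4 in KYSE510. KYSE30 had more SPRR3, a small proline-rich precursor of the esophagus, at 17.8 CPM in KYSE30 and 0.186 in KYSE510, more involucrin IVL at 26.1 CPM in KYSE30 and 1.16 in KYSE510, more sciellin SCEL at 59.98 CPM in KYSE30 and 4.35 in KYSE510 and more of the transglutaminase TGM5 at 7.25 and 0.215 CPM. KYSE510 had more filaggrin FLG at 2.16 CPM in KYSE30 and 46.6 in KYSE510, more CSTA and more TGM1 at 1.04 and 9.62 CPM. Precursors and crosslinkers were thus split within each class.

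Of the protease inhibitors and calcium-binding proteins of squamous epithelium, the measured clade B serpins lay largely on the side of KYSE510. Most S100 proteins past 2-fold were higher in KYSE510 as well, but 7 of 14 were within 2-fold. Of 13 clade B serpins, inhibitors of serine and cysteine proteases, 6 were measured, of which 5 were higher in KYSE510 and none in KYSE30, with a median difference of -2.38. SERPINB13, or headpin, was at 0.171 CPM in KYSE30 and 76.6 in KYSE510, SERPINB7 at 1.02 and 19.5 CPM, SERPINB1 at 18.3 and 110.1 CPM and SERPINB8 at 4.37 and 24.4 CPM. SERPINB3 and SERPINB4, the squamous cell carcinoma antigens, had 123 and 89.5 CPM in KYSE510 and are not listed in the KYSE30 table. They are near copies, so only their joint presence is firm. SERPINB5, or maspin, was within 2-fold at 125 and 69.4 CPM. These genes form a cluster on chromosome 18 together with SERPINB2, which had 0.286 CPM in KYSE510 and is not listed in the KYSE30 table, while SERPINB1 and SERPINB6 lie on chromosome 6.

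S100 proteins numbered 1 higher in KYSE30 and 6 higher in KYSE510 of 14 measured. The summed level of the list was 2140 CPM in KYSE30 and 1851 in KYSE510. S100A9, a subunit of calprotectin, was at 0.368 CPM in KYSE30 and 26.99 in KYSE510, its partner S100A8 at 0.159 and 2.93 CPM, psoriasin S100A7 at 0.0265 and 5.64 CPM and S100P at 6.16 CPM in KYSE30 and 91.3 in KYSE510. S100A4 went the other way at 14.9 and 6.76 CPM, and the ubiquitous S100A6, S100A10 and S100A11 were within 2-fold. Of the kallikreins and SPINK inhibitors, 5 of 12 were measured. KLK10 was at 0.591 CPM in KYSE30 and 33.5 in KYSE510, KLK8 at 0.0272 and 2.28 CPM and KLK6 at 25.1 and 59.8 CPM. SPINK5, which inhibits kallikreins of the epidermis, was higher in KYSE30 at 12.3 and 2.38 CPM.

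Cell junctions differed by type. Desmosome genes, which anchor keratin filaments, included 4 of 10 higher in KYSE510 and none higher in KYSE30. DSC3, the basal desmocollin, was at 22.9 CPM in KYSE30 and 192 in KYSE510, DSG3 at 49.6 and 151 CPM and desmoplakin DSP at 269 and 768 CPM, while plakoglobin JUP (764 and 784 CPM) and PERP (552 and 561 CPM) were alike. Tight junction genes, which seal the space between cells, included 5 of 14 higher in KYSE30 and none higher in KYSE510, with a median difference of 0.56. Cingulin CGN was at 115 CPM in KYSE30 and 27.9 in KYSE510, CLDN7 at 141 and 39.3 CPM, CLDN4 at 500.1 and 159 CPM, CLDN1 at 214 and 104 CPM and tricellulin MARVELD2 at 34.2 and 15.9 CPM. Some adhesion genes were alike in both lines, E-cadherin CDH1 at 429.9 and 382 CPM, CTNNB1 at 283 and 290.1 CPM and CTNNA1 at 664 and 659.5 CPM.

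Other surface molecules of epithelium differed in which member each line used. CEACAM5 (32.3 and 1.43 CPM), CEACAM6 (55.2 and 4.33 CPM) and CEACAM1 (22.4 and 1.54 CPM), related adhesion molecules with alike sequences, were higher in KYSE30. The membrane mucins MUC4 and MUC1, the latter at 3.62 CPM in KYSE30 and 48.6 in KYSE510, were higher in KYSE510, whereas MUC16 was at 121 and 40.9 CPM. N-cadherin CDH2 was at 3.52 and 20.6 CPM and NECTIN4 at 24.1 and 53.8 CPM. The list as a whole had a median difference of 0.01, with 4 of 17 genes on the side of KYSE30 and 4 on that of KYSE510.

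Hemidesmosomes tie keratinocytes to laminin-332 in the basement membrane, and of 10 genes 4 were higher in KYSE30 and 1 in KYSE510. COL17A1, their transmembrane collagen, was at 649 CPM in KYSE30 and 55.6 in KYSE510, a ratio of 11.7, and ITGB4, the integrin chain of the plaque, at 1820.0 CPM in KYSE30 and 512 in KYSE510. CD151 (212 and 95.9 CPM) and plectin PLEC (2205 and 1063 CPM) were also past 2-fold on the same side. COL7A1, which forms the anchoring fibrils under the plaque, went the other way at 13.7 CPM in KYSE30 and 249.6 in KYSE510. The laminin chains LAMA3 and LAMB3 had differences of -0.28 and -0.97.

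Integrins outside the hemidesmosome were higher in KYSE30 for 5 of 10 measured genes. ITGA2, a collagen receptor chain, was at 421 CPM in KYSE30 and 45.9 in KYSE510, ITGB6 at 161 and 25.5 CPM, ITGB5 at 178 and 34.3 CPM, ITGAV at 438 and 189 CPM and ITGB8 at 59.5 and 26.5 CPM. ITGAV is a shared partner of ITGB5, ITGB6 and ITGB8, so that this chain and these partners stood on the same side. ITGA1, another collagen receptor chain, was higher in KYSE510 at 6.57 and 36.8 CPM, and ITGB1 and ITGA3 were alike at 428 and 405 CPM and 557 and 538 CPM.

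Matrix and mesenchymal genes were divided by gene rather than by line, with 7 of 22 higher in KYSE30 and 9 in KYSE510. SPARC, a collagen-binding matrix protein, was at 9.09 CPM in KYSE30 and 407 in KYSE510. COL5A2 was at 5.60 and 169 CPM, and the collagen crosslinkers LOX and LOXL2 at 0.897 and 46.9 CPM and 37.3 and 351 CPM. KYSE30 had more NT5E, the ecto-nucleotidase CD73, at 169 CPM in KYSE30 and 10.2 in KYSE510, more fibronectin FN1 at 456 CPM in KYSE30 and 135 in KYSE510, more COL6A1 at 16.5 and 2.36 CPM and more COL6A2 at 6.14 and 0.128 CPM. Vimentin VIM, the intermediate filament of mesenchymal cells, was low in both at 1.27 and 0.0652 CPM, ZEB1 was at 0.280 and 0.0530 CPM, and SNAI2 was at 44.6 and 31.3 CPM. TWIST1 had 4.44 CPM in KYSE30 and is not listed in the KYSE510 table.

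Matrix metalloproteinases and their inhibitors were higher in KYSE30 for 6 of 12 measured genes. MMP14, the membrane-bound activator of pro-MMP2, was at 102 CPM in KYSE30 and 1.34 in KYSE510. MMP2 itself was at 56.8 CPM in KYSE30 and 7.20 in KYSE510, and TIMP2, which takes part in that activation, at 147 CPM in KYSE30 and 12.4 in KYSE510. MMP2, its activator and TIMP2 were therefore all higher in KYSE30. MMP16 (13.02 and 0.0245 CPM) and MMP28 (31.1 and 1.87 CPM) were on the same side. MMP7, a small secreted protease, was at 0.0388 and 8.20 CPM and MMP15 at 10.7 and 41.7 CPM. Of the plasminogen system, the activator PLAU was at 159 CPM in KYSE30 and 52.2 in KYSE510 and the Kunitz inhibitor TFPI2 at 17.9 CPM in KYSE30 and 0.109 in KYSE510. The activator PLAT had the opposite direction at 28.8 and 66.6 CPM. Several serpins of the list were higher in KYSE510, SERPINE2 at 14.5 CPM in KYSE30 and 51.5 in KYSE510, SERPINF1 at 4.30 and 18.6 CPM and SERPINA3 at 0.0519 and 2.75 CPM, while SERPINI1 was alike at 1.30 and 1.33 CPM. In all, 2 genes of 17 were on the side of KYSE30 and 7 on that of KYSE510, beside 14.8% and 12.7% of all measured genes.

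EGFR, the receptor of epidermal growth factor, had the largest positive difference of the ErbB list, in which 3 of 13 genes were higher in KYSE30 and 3 in KYSE510. It was at 2996 CPM in KYSE30 and 272 in KYSE510, with an approximate counting interval of 2980 to 3010 in KYSE30 and 269 to 276 in KYSE510, a ratio of 11.01. ERBB2 (169 and 94.05 CPM) and ERBB3 (109.5 and 95.1 CPM) were within 2-fold. Of its ligands, AREG (75.9 and 27.1 CPM) and TGFA (76.5 and 35.96 CPM) were higher in KYSE30, while HBEGF (7.005 and 28.8 CPM) and the ERBB3 ligand NRG1 (7.18 and 92.96 CPM) were higher in KYSE510. The receptor and its ligands were therefore not on a single side.

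Among other receptor tyrosine kinases, 5 of 15 were higher in KYSE30 and 2 in KYSE510. ROR1, a receptor of Wnt ligands, was at 73.4 CPM in KYSE30 and 0.818 in KYSE510, and its relative ROR2 at 25.05 CPM in KYSE30 and 0.321 in KYSE510. WNT5A, the ligand known for binding ROR1 and ROR2, was instead the gene of KYSE510, at 0.384 and 135 CPM. The insulin receptor INSR was at 18.8 and 3.22 CPM, MERTK at 11.8 and 1.55 CPM and CSF1R at 14.7 and 2.03 CPM. MET, the receptor of hepatocyte growth factor, was at 63.4 CPM in KYSE30 and 168 in KYSE510. For Eph receptors and ephrins the counts were 7 and 2 of 17, with a median difference of 0.75. EPHB4 was at 173 and 58.5 CPM, EPHB6 at 16.03 and 4.11 CPM, EFNB3 at 6.69 and 0.0241 CPM and EFNB2 at 46.5 and 12.8 CPM on the side of KYSE30, EFNB1 at 28.6 and 103 CPM and EFNA1 at 30.6 and 69.7 CPM on the other.

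Fibroblast growth factor genes included FGF2, a ligand, at 2.41 CPM in KYSE30 and 61.2 in KYSE510, and FGFR4 at 10.8 and 33.8 CPM. The carrier FGFBP1, which releases FGFs from the matrix, was at 79.4 CPM in KYSE30 and 16.7 in KYSE510, and the glypican GPC4 at 42.2 and 4.62 CPM. FGF21 had 23.5 CPM in KYSE510 and is not listed in the KYSE30 table. Over the list, 2 of 14 genes were higher in KYSE30 and 3 in KYSE510, beside 14.8% and 12.7% of all measured genes.

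Developmental signaling genes differed mainly in single ligands and receptors. In the Notch pathway, the ligands DLL1 (10.7 and 66.9 CPM) and JAG2 (58.8 and 141 CPM), the receptor NOTCH3 (72.7 and 246 CPM) and the targets HES1 (16.9 and 40.1 CPM) and NRARP (4.87 and 20.1 CPM) were higher in KYSE510. HEY1, another target gene, was at 58.6 CPM in KYSE30 and 2.71 in KYSE510, the opposite direction, and 5 of 19 genes of the list were higher in KYSE510 against 2 in KYSE30. Of Wnt ligands, WNT5A, WNT10A (0.946 and 35.7 CPM), WNT4 (2.01 and 39.7 CPM), WNT11 (0.697 and 13.3 CPM) and WNT7B (69.7 and 149 CPM) were higher in KYSE510, while WNT7A (23.5 and 9.23 CPM), WNT3A (8.50 and 0.403 CPM), WNT5B (3.35 and 0.371 CPM) and WNT16 (1.48 and 0.0824 CPM) were higher in KYSE30. The receptor FZD10 had 26.9 CPM in KYSE510 and is not listed in the KYSE30 table. Counts for the whole Wnt list of 33 were 9 and 7.

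Of the TGF-beta receptors, the type II receptor TGFBR2 was within 2-fold at 121 and 71.1 CPM. TGFBR1, the type I signaling receptor, was at 408 CPM in KYSE30 and 36.3 in KYSE510, a ratio of 11.2, and the co-receptor TGFBR3 at 167 CPM in KYSE30 and 8.57 in KYSE510. BMP4 was at 31.4 and 2.52 CPM and the BMP antagonist NOG at 6.06 and 0.0289 CPM. BMP2 (4.62 and 18.6 CPM), the receptor BMPR1B (1.41 and 10.5 CPM), the inhibitor FSTL3 (5.30 and 34.6 CPM), the target ID3 (135 and 335 CPM) and the stress-induced GDF15 (47.1 and 146 CPM) were higher in KYSE510. Together 9 of 36 genes were higher in KYSE30 and 5 in KYSE510. In the Hedgehog pathway, with 2 and 2 of 9 genes past 2-fold, the receptor PTCH1 (44.3 and 5.98 CPM) was higher in KYSE30, and SMO (6.69 and 20.3 CPM) and the effector GLI1 (0.948 and 5.27 CPM) in KYSE510. PTCH1 and GLI1 are both known as target genes of the pathway, and here they had opposite signs.

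Target genes of NRF2 stood on the side of KYSE510. All 30 listed genes were measured, 17 of them at least 2-fold higher in KYSE510 and none in KYSE30, with a median difference of -1.32. Beside them, 12.7% of all measured genes were higher in KYSE510 and the median over all was 0.07. AKR1B10, an aldo-keto reductase, was at 0.269 CPM in KYSE30 and 87.3 in KYSE510, and its relatives AKR1C1, AKR1C2 and AKR1B1 were described above. AKR1C3 was at 0.231 and 2.05 CPM. Glutathione synthesis was covered by SLC7A11, the cystine importer, at 34.3 CPM in KYSE30 and 433 in KYSE510, and by the glutamate-cysteine ligase subunits GCLC at 71.01 and 317 CPM and GCLM at 43.3 and 192 CPM. GPX2, a glutathione peroxidase of epithelium, was at 18.6 CPM in KYSE30 and 279 in KYSE510. These 4 genes were all more than 4-fold higher in KYSE510.

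Other targets differed over a smaller range. The heme oxygenase HMOX1 was at 9.55 and 49.7 CPM, the quinone reductase NQO1 at 241 CPM in KYSE30 and 606 in KYSE510, and the ferritin light chain FTL at 1430.4 CPM in KYSE30 and 5369 in KYSE510. NADPH-forming enzymes were ME1 at 45.3 and 222 CPM and PGD at 200.2 and 587 CPM. TXNRD1 (684 and 1233 CPM), SRXN1 (98.9 and 169 CPM), FTH1 (2893 and 4654 CPM) and PRDX1 (629 and 783 CPM) were higher in KYSE510 by less than 2-fold. Only TALDO1 (202 and 171 CPM), CBR1 (62.6 and 53.6 CPM) and ABCC3 (123 and 119 CPM) had positive differences, none above 0.24.

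**Figure D3:**
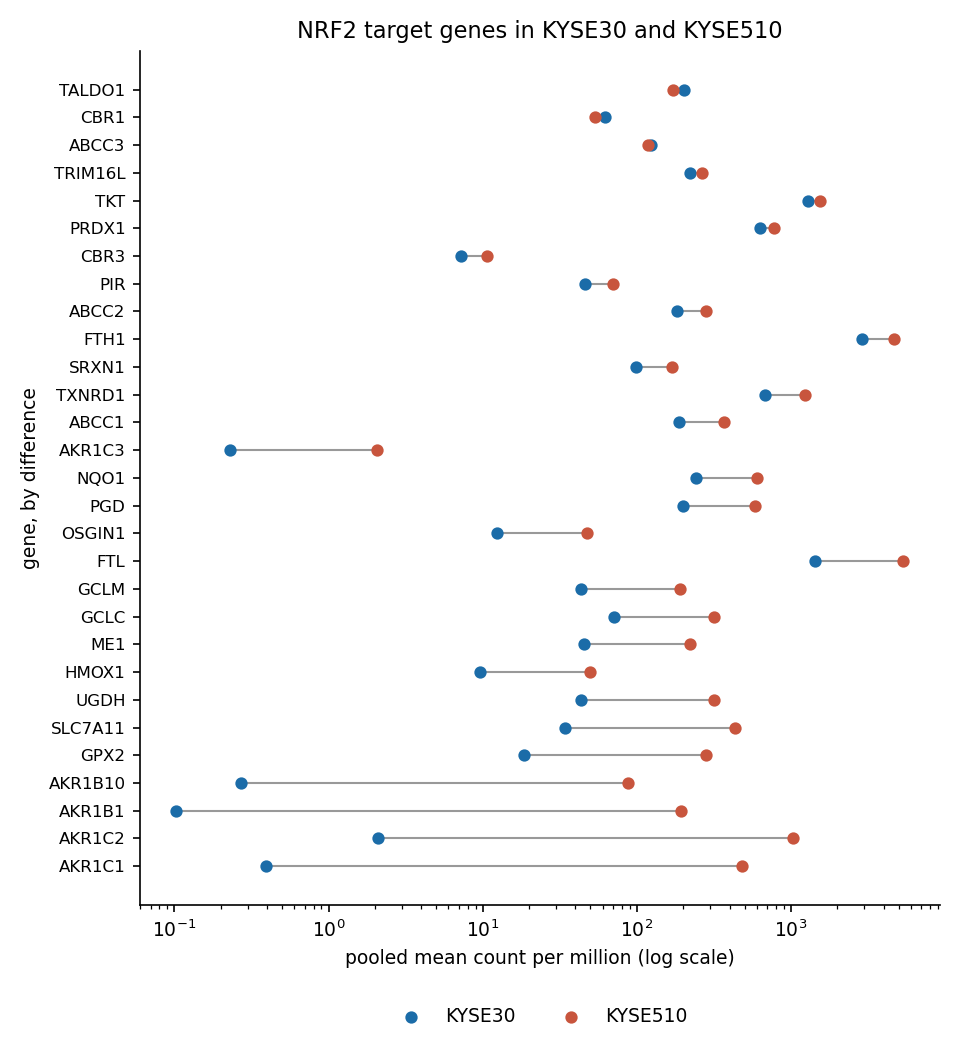
Level of 29 of the 30 NRF2 target genes in KYSE30 (blue) and KYSE510 (red), in CPM on a log axis, ordered by difference. The red point lies right of the blue in 26 of 29 genes, the line between them is longest for the aldo-keto reductases at the bottom, and the top 3 genes, TALDO1, CBR1 and ABCC3, have it reversed.

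NRF2 binds the antioxidant response element, whose core was searched as TGACNNNGC on both strands from 250 bases before to 50 bases after the RefSeq start of each gene (GRCh38.p14). Of 30 targets, 20 had a promoter in the table used, and 7 of these, 35.0%, held the core, against 14.9% of 10034 measured protein-coding genes with a promoter and 13.6% of all 27303 promoters. Among targets at least 2-fold higher in KYSE510 it was 4 of 13 and among those within 2-fold 3 of 7. Sequences of 49 bases around the core of 4 genes higher in KYSE510 and 2 within 2-fold follow, 5′ to 3′ on the strand of the gene, with the core in capitals. They are shown so that the element can be compared between targets past 2-fold and targets within it.
GPX2 (chr14:64942839-64942887, minus strand): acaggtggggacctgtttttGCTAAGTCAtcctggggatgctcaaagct
GCLM (chr1:93909436-93909484, minus strand): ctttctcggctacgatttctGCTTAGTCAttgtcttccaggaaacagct
ME1 (chr6:83431160-83431208, minus strand): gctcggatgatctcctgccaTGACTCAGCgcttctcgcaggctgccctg
PGD (chr1:10398843-10398891, plus strand): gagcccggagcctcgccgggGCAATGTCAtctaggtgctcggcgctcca
CBR1 (chr21:36069845-36069893, plus strand): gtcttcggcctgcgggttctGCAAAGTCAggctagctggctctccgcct
TXNRD1 (chr12:104215660-104215708, plus strand): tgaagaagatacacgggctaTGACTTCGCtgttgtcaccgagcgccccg
All 6 windows lie upstream of the start. In GPX2, GCLM, PGD and CBR1 the core shown reads on the opposite strand, and in ME1 and TXNRD1 on the strand of the gene. ME1 and TXNRD1 each held a second core on the opposite strand, at 11 and -8 bases from the start. PIR, the remaining target with a core, held it on the opposite strand at 26 bases from the start. The sequences of these further sites are not shown. GPX2, GCLM, ME1 and PGD had differences of -3.84, -2.12, -2.27 and -1.55, CBR1 and TXNRD1 of 0.22 and -0.85. A match of these letters is a description of sequence only.

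Promoter features of the widely different genes were compared in the same way. The antioxidant response core was in 17 of 169 promoters, 10.1%, of genes at least 8-fold higher in KYSE510. For those at least 8-fold higher in KYSE30 it was 18 of 142, 12.7%, and for genes within 2-fold 15.2% of 7333. Neither set with 8-fold differences was thus above the 14.9% of measured protein-coding genes. Genes at least 8-fold higher in KYSE510 held the sequence TATAAA, on either strand, in 27 of 169 promoters, 15.98%, and those at least 8-fold higher in KYSE30 in 11 of 142, 7.75%. Genes within 2-fold held it in 4.98% of 7333, and all promoters in 11.95% of 27303. The median observed over expected ratio of CpG was 0.670 and 0.665 in the sets with 8-fold differences and 0.854 in genes within 2-fold. Genes with wide differences therefore had a lower CpG ratio around their start, whichever line was higher. Promoters were matched for 10034 of 12735 measured protein-coding genes.

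Enzymes of metabolism lay on both sides. Of 23 detoxifying and steroid or retinoid enzymes, 5 were higher in KYSE30 and 8 in KYSE510. UGT1A6, a glucuronosyl transferase whose locus shares exons with its neighbours, was at 101 and 543 CPM, CYP4F11 at 8.85 and 75.7 CPM, GSTA4 at 2.20 and 24.8 CPM and ADH1C at 0.0279 and 11.9 CPM. The retinoid genes CRABP2 (84.7 CPM in KYSE30 and 12.6 in KYSE510), STRA6 (247 and 76.3 CPM), CYP26A1 (3.70 and 0.317 CPM) and ALDH1A3 (1551 and 741 CPM) were higher in KYSE30. The list of metallothioneins and the zinc exporter SLC30A1 had 3 genes measured, MT2A at 66.00 and 80.1 CPM, MT1X at 5.64 and 16.8 CPM and SLC30A1 at 31.3 and 62.3 CPM, and MT1E at 25.6 CPM in KYSE30 is not listed in the KYSE510 table.

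Of the hypoxia and glycolysis genes, 7 of 31 were higher in KYSE510 and 2 in KYSE30. VEGFA, the angiogenic factor, was at 50.1 CPM in KYSE30 and 447 in KYSE510, the hexokinase HK2 at 49.3 CPM in KYSE30 and 294 in KYSE510 and the aldolase ALDOC at 1.93 CPM in KYSE30 and 88.2 in KYSE510. CA9, a carbonic anhydrase induced by low oxygen, had 36.2 CPM in KYSE510 and is not listed in the KYSE30 table. Against these, the lactate exporter SLC16A3 was at 534 CPM in KYSE30 and 55.4 in KYSE510 and the glucose transporter SLC2A3 at 5.62 and 0.0901 CPM. GAPDH (3661 and 5758 CPM), ENO1 (2006 and 3549.6 CPM) and LDHA (1052 and 674 CPM), which belong to glycolysis as HK2 and ALDOC do, were within 2-fold.

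Cholesterol and fatty acid synthesis had 9 of 30 genes higher in KYSE510 and 3 in KYSE30. HMGCS1, an early enzyme of the pathway, was at 81.4 CPM in KYSE30 and 458 in KYSE510, SQLE at 85.4 and 278 CPM and DHCR7, the last step to cholesterol, at 659.6 CPM in KYSE30 and 2816 in KYSE510. The cyclase LSS (270.0 and 112 CPM) and the regulator SREBF1 (887 and 402 CPM) were higher in KYSE30. Of fatty acid synthesis, ACACA (164 and 513 CPM) and the desaturase FADS1 (139 and 302 CPM) were higher in KYSE510, and FASN and SCD were within 2-fold at 1888 and 1418 CPM and 2146 and 2188 CPM.

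Inflammatory chemokines and cytokines had a median difference of -2.21, the lowest among lists with at least 10 measured genes. Of 19 measured, 15 were higher in KYSE510 and 1 in KYSE30. CXCL1, a neutrophil chemokine, was at 0.0419 CPM in KYSE30 and 88.3 in KYSE510, CXCL2 at 0.104 and 17.9 CPM and CXCL8 at 1.41 CPM in KYSE30 and 69.1 in KYSE510. The alarmin IL1A was at 1.46 CPM in KYSE30 and 100.3 in KYSE510, IL1B at 0.397 CPM in KYSE30 and 77.7 in KYSE510 and CCL20 at 0.0265 and 23.2 CPM. CXCL1, CXCL2 and CCL20 were thus at the level of a few reads in KYSE30, while CXCL8, IL1A and IL1B were low but above it. Feedback genes of NF-kappaB were also higher in KYSE510, TNFAIP3 at 5.97 and 113 CPM and NFKBIA at 66.4 and 195 CPM. IL6 had 5.67 CPM and TNF 0.437 in KYSE510, and neither is listed in the KYSE30 table. The exception was PTGES, the prostaglandin E synthase, at 347 CPM in KYSE30 and 92.3 in KYSE510, while PTGS2, the cyclooxygenase that feeds it, was at 16.5 and 80.1 CPM.

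Complement genes lay mostly on the side of KYSE510. C3, the central component, was at 17.5 CPM in KYSE30 and 676 in KYSE510, the initiating proteases C1R and C1S at 1.01 and 136 CPM and 0.0924 and 199.7 CPM, factor B CFB at 0.431 CPM in KYSE30 and 120.2 in KYSE510 and factor I CFI at 1.63 and 36.8 CPM. C4A and C4B, near copies, were at 5.76 and 11.99 CPM and 1.46 and 13.95 CPM. The membrane regulators CD46 (377 and 418 CPM) and CD59 (211 and 131 CPM) were within 2-fold, CD55 was at 60.6 and 249 CPM, and clusterin CLU (369 and 162 CPM) and C5 (12.8 and 4.55 CPM) were higher in KYSE30. Of 15 genes, 8 were higher in KYSE510 and 3 in KYSE30, with a median difference of -1.64.

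Interferon-stimulated genes lay on both sides, 8 of 38 being higher in KYSE30 and 7 in KYSE510, with a median difference of -0.01. On the side of KYSE30 were IFIT1 (23.6 and 3.50 CPM), OAS1 (47.8 and 8.63 CPM) and ISG15 (42.1 and 8.69 CPM). On that of KYSE510 were IFITM1 (4.10 and 66.2 CPM), IFITM2 (1.58 and 25.1 CPM), HERC5 (0.0122 and 11.9 CPM) and the guanylate-binding protein GBP1 (5.23 CPM in KYSE30 and 28.1 in KYSE510), while GBP2 had the opposite sign at 38.2 and 10.3 CPM. Antigen presentation genes of MHC class I included 5 of 18 higher in KYSE510 and none in KYSE30. The immunoproteasome subunits PSMB8 and PSMB9 were at 10.7 and 92.04 CPM and 5.68 and 58.3 CPM, and the peptide transporter TAP1 at 22.7 CPM in KYSE30 and 93.6 in KYSE510. HLA-B and HLA-C were alike, at 185 and 164 CPM and 240.2 and 229 CPM. Counts of HLA genes can depend on how well the alleles of a line match the reference. Class II genes were low, 3 of 4 measured being higher in KYSE510, the invariant chain CD74 at 0.0122 and 3.98 CPM and CIITA at 1.72 and 6.35 CPM, and HLA-DQB1 with 18.6 CPM in KYSE510 is not listed in the KYSE30 table.

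Cancer-testis antigens, genes of the germ line that some tumors express, were mostly on the side of KYSE30 among the few that were measured. Of 40 listed, 11 are in both tables and 8 were measured, 6 higher in KYSE30 and 1 in KYSE510. MAGEA6 was at 88.6 CPM in KYSE30 and 1.16 in KYSE510, MAGEA2 and MAGEA2B at 16.96 and 0.0108 CPM and 25.7 and 0.0108 CPM, and CTAG2 and MAGEA4 as given above. MAGEA3, a near copy of MAGEA6, was within 2-fold at 145 and 103 CPM, so that the division of reads between them bears on both values. MAGEA10 and MAGEB2 had 60.6 and 60.5 CPM in KYSE30 and are not listed in the KYSE510 table. The helicase DDX43 was at 0.0265 CPM in KYSE30 and 20.1 in KYSE510, and MAGEA9B had 17.5 CPM in KYSE510 without being listed for KYSE30. Of the list, 6 genes are in the KYSE30 table alone and 6 in that of KYSE510 alone.

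**Figure D4:**
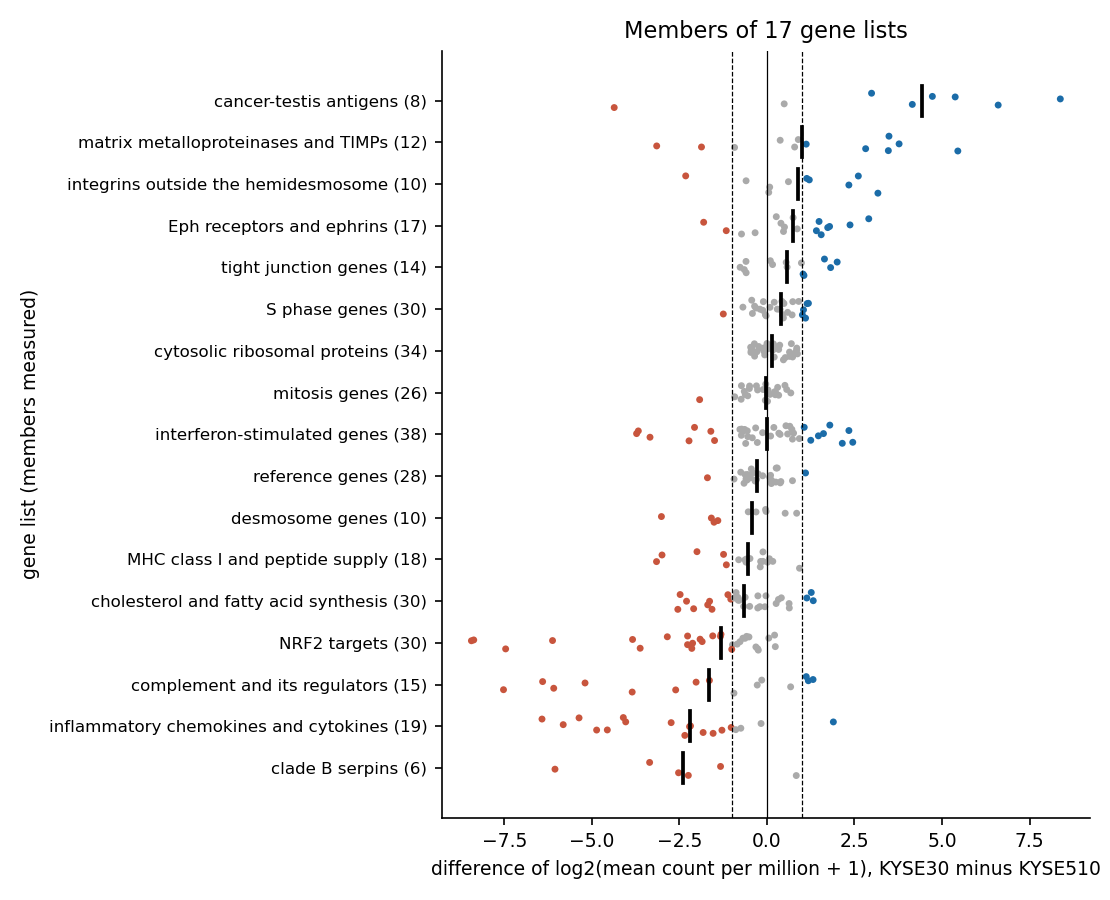
Difference of each measured member of 17 gene lists, as log2(CPM + 1) in KYSE30 minus KYSE510, points blue or red past 2-fold (dashed lines) and grey within it, black bars the median of the list. Cancer-testis antigens reach furthest right (median 4.44) and clade B serpins (-2.38), inflammatory genes (-2.21) and NRF2 targets (-1.32) lie left, while ribosomal, mitosis and reference genes stay near 0.

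Homeobox genes had low levels. Of 24 measured HOX genes, 5 were higher in KYSE30 and 5 in KYSE510, beside 14.8% and 12.7% of all measured genes. HOXA9 had the largest difference at 2.55 CPM in KYSE30 and 46.2 in KYSE510, HOXA11 was at 1.11 and 4.89 CPM and HOXC11 at 1.99 and 8.70 CPM, while HOXB3 (20.3 and 5.31 CPM) and HOXB13 (4.16 and 0.549 CPM) were higher in KYSE30. In the LIM-homeodomain family and its partners, 4 of 13 measured genes were higher in KYSE30 and none in KYSE510. LMX1B was at 16.01 CPM in KYSE30 and 0.344 in KYSE510, LHX1 at 6.19 and 0.786 CPM and LMO2 at 2.22 and 0.529 CPM. LHX2, the gene the hairpins target (chr9:124001670-124033301, plus strand, GENCODE 29), was at 3.93 CPM in KYSE30 and 0.461 in KYSE510, with counting intervals of 3.49 to 4.40 and 0.323 to 0.639 CPM. Both values average control and knockdown libraries. The LIM partners LDB1, SSBP2, SSBP3, SSBP4 and LMO4 were within 2-fold. ISL1, a relative, had 15.1 CPM in KYSE30 and is not listed in the KYSE510 table.

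Genes that the study followed beside LHX2 differed between the lines too. SERPINE2, a serpin that inhibits thrombin and plasminogen activators, was higher in KYSE510, with counting intervals of 13.7 to 15.4 CPM in KYSE30 and 49.9 to 53.1 in KYSE510, a ratio of 3.55. LHX2 itself was higher in KYSE30, so the pair had opposite signs between these lines, 1.75 for LHX2 and -1.76 for SERPINE2. MAPK6, an atypical MAP kinase, was at 65.2 CPM in KYSE30 and 147 in KYSE510. FGFBP1 and GBP1 had differences of 2.18 and -2.22.

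Among genes of proliferation, those of mitosis were close between the lines. Of 26 mitosis genes 1 was past 2-fold, the kinetochore gene NDC80 at 61.7 CPM in KYSE30 and 236 in KYSE510, and the median difference was -0.04. S phase genes had 5 of 30 higher in KYSE30, among them PCNA (239 and 111 CPM), FEN1 (143 and 63.9 CPM) and GINS2 (32.1 and 13.6 CPM), and 1 in KYSE510, the thymidylate synthase TYMS (116 and 276 CPM). Over all measured genes the shares were 14.8% and 12.7%. Of 21 cyclins, inhibitors and other cell cycle regulators, 5 were higher in KYSE30 and 1 in KYSE510. MYC was at 98.00 CPM in KYSE30 and 586 in KYSE510, cyclin D1 CCND1 at 581 and 994 CPM and the inhibitor CDKN2C at 13.3 and 1.53 CPM. CDKN2A and CDKN2B, neighbours on chromosome 9p21 that encode p16 and p15, had 29 and 62.5 CPM in KYSE30 and are not listed in the KYSE510 table, where a single read would have stood at about 0.0129 CPM. MTAP, the next gene, was present in both lines at 43.9 and 63.99 CPM, and DMRTA1, on the other side, had 2.51 in KYSE30 without being listed for KYSE510. 

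Housekeeping lists give the range that stable genes cover. None of 34 ribosomal protein genes was past 2-fold, with a median difference of 0.16 and a range from -0.46 to 0.87. Of 28 reference genes, YWHAZ (1316 and 612 CPM) was higher in KYSE30 and the transferrin receptor TFRC (353 CPM in KYSE30 and 1147 in KYSE510) in KYSE510. Mitochondrially encoded genes had a median difference of 0.50, with MT-ND2 past the limit at 4233 and 2082 CPM, and took 7.56% of the summed counts in KYSE30 and 5.21% in KYSE510. MT-CO1, at 23360.0 and 15106 CPM, and EEF1A1, at 11262 and 9439 CPM, were among the genes with most counts in both lines. RNA interference genes, which act on hairpins, had 3 of 13 higher in KYSE30, AGO2 (201 and 86.9 CPM), AGO4 (28.7 and 10.6 CPM) and TNRC6C (13.5 and 3.07 CPM), and DICER1 (122 and 126 CPM) and DROSHA (125 and 141 CPM) alike.

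Differences were also ordered along the chromosomes. Median differences of whole chromosomes ran from -0.67 on chromosome 14 to 0.38 on chromosome 8. On chromosome 14, 139 of 483 measured genes, 28.8%, were higher in KYSE510 and 4.76% in KYSE30. The opposite held on chromosome 17, where 234 of 942 genes, 24.8%, were higher in KYSE30 and 7.11% in KYSE510. Chromosomes 9 and 10 had medians of 0.35 and 0.32. DNA copy number was not measured in these libraries, and its part in the differences was not tested.

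In windows of 20 neighbouring measured genes, the median difference had a 5th percentile of -0.69 and a 95th percentile of 0.79 over 14118 overlapping windows. The highest median, 1.91, was that of the window at chr7:54752250-65006684 (hg38), where 15 of 20 genes were higher in KYSE30 and none in KYSE510. It begins with SEC61G (136 and 29.8 CPM) and EGFR and goes on with LANCL2 (85.9 and 14.2 CPM), VOPP1 (617 CPM in KYSE30 and 55.8 in KYSE510), MRPS17 (95.9 and 17.3 CPM), CCT6A (1250.4 and 342 CPM), SUMF2 (305 and 77.6 CPM) and CHCHD2 (1153 CPM in KYSE30 and 217 in KYSE510). All 14 measured genes of the window from SEC61G to CHCHD2, within 1.08 Mb (megabases) of the EGFR start, were past 2-fold. Beyond the centromere, ZNF680 (4.91 and 4.62 CPM) and ZNF273 (2.23 and 2.24 CPM) showed nearly no difference, while ZNF117 was at 15.2 and 3.05 CPM. From SEC61G to CHCHD2, genes with unlike functions thus shared their direction with EGFR, in a window chosen for its high median. Of 9 measured genes in the list of 7p11 and 7q21, 6 were higher in KYSE30 and 1 in KYSE510. This count is not separate from the window, since EGFR, VOPP1, SEC61G and LANCL2 are in both. SAMD9 (134 and 43.1 CPM) and SAMD9L (31.4 and 12.6 CPM), the others higher in KYSE30, lie outside it.

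A further group of 3 windows lay on chromosome 17, largely on its short arm. At chr17:17843511-18551705 the median was 1.56 and 16 of 20 genes were higher in KYSE30, with TOM1L2 at 1000.0 CPM in KYSE30 and 37.9 in KYSE510, LLGL1, a polarity gene, at 269.8 and 73.7 CPM, SHMT1, of folate metabolism, at 223 and 56.3 CPM, and MIEF2 at 85.5 and 12.4 CPM. At chr17:19719059-27649560 the median was 1.52, with USP22 (919 and 361 CPM), MAP2K3 (162 and 47.2 CPM) and NATD1 (42.9 and 3.25 CPM). ALDH3A1, an aldehyde dehydrogenase in the same window, was past 2-fold in the other direction at 83.2 CPM in KYSE30 and 392 in KYSE510. At chr17:15944917-17217679 the median was 1.41, with MPRIP at 1779 CPM in KYSE30 and 207 in KYSE510, NCOR1 at 518 and 202 CPM and the adenosine receptor ADORA2B at 158 and 36.01 CPM. This stretch holds families of near-identical copies such as CCDC144A and LGALS9B, whose counts are uncertain.

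On the side of KYSE510 the lowest median, -1.97, was at chr18:32124877-36272157, where 13 of 20 genes were higher in KYSE510 and none in KYSE30. The window includes MAPRE2 (26.2 and 165 CPM), ZNF24 (65.4 and 420.2 CPM), GALNT1 (61.4 and 362 CPM), RPRD1A (60.5 and 457 CPM), the zinc importer SLC39A6 (73.2 and 402 CPM) and MOCOS (11.8 CPM in KYSE30 and 219.8 in KYSE510). DTNA (5.23 and 4.40 CPM), before MAPRE2, was within 2-fold. The next windows were at chr2:240586716-242160153 with a median of -1.57, holding HDLBP (184 and 692 CPM), FARP2 (19.7 and 100.4 CPM) and THAP4 (18.5 and 85.01 CPM), at chr8:116642130-123210079 with -1.53, and at chr5:1050376-10266412 with -1.44. The window of chromosome 8 held EXT1, of heparan sulfate synthesis, at 37.3 CPM in KYSE30 and 572 in KYSE510, the cohesin subunit RAD21 at 269 and 1033 CPM and FAM83A at 3.47 CPM in KYSE30 and 184 in KYSE510, but also HAS2, the hyaluronan synthase, at 7.18 and 0.0133 CPM. That of chromosome 5 held the chaperonin CCT5 (345 and 979 CPM), NSUN2 (106 and 320.3 CPM) and SEMA5A (8.40 and 70.98 CPM).

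**Figure D5:**
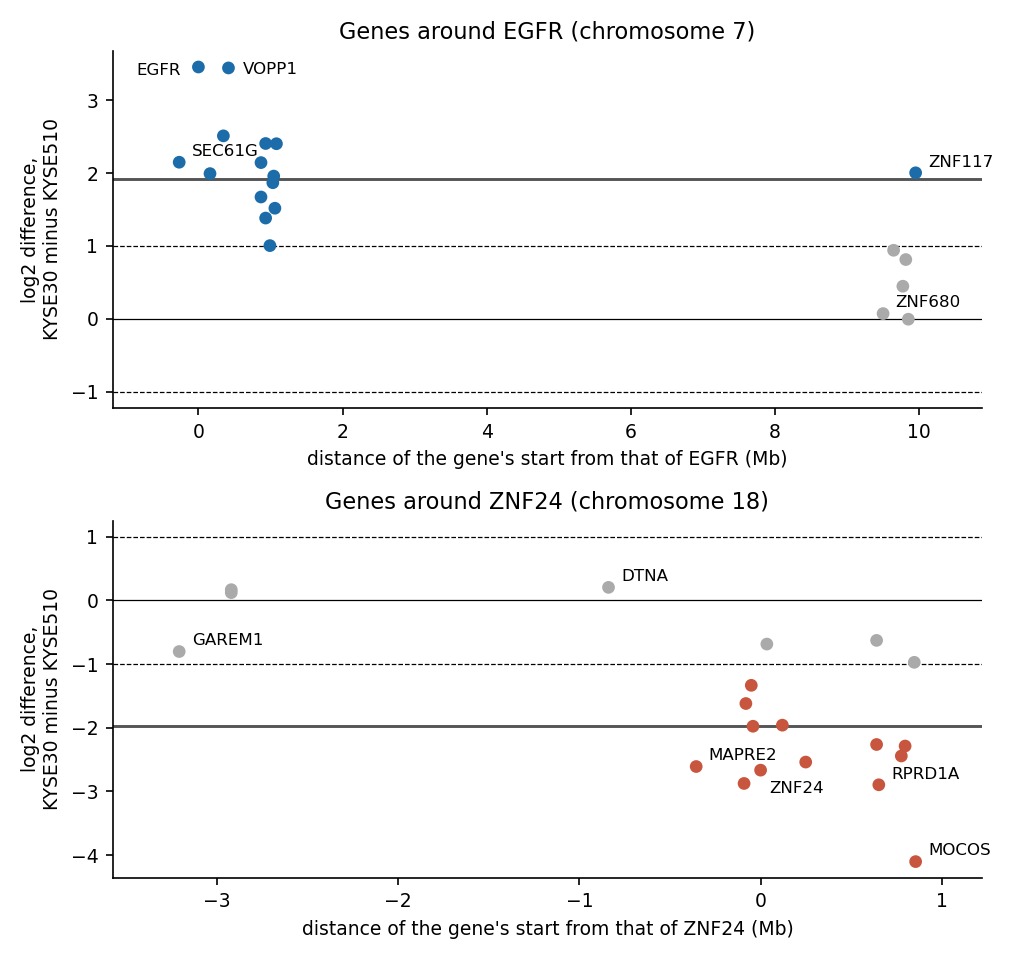
Difference of each measured gene (log2 scale, KYSE30 minus KYSE510) in the windows with the highest (top, around EGFR) and lowest (bottom, around ZNF24) median, against the distance of its start from that of the named gene in Mb. Dashed lines mark 2-fold and the thick line the window's median (1.91 and -1.97); genes near EGFR lie above 1, and of the 6 genes past the gap only ZNF117 does, and genes from MAPRE2 to MOCOS lie mostly below -1.

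Genes of 11q13, a region often amplified in squamous carcinoma, did not share a direction, 3 of 11 being higher in KYSE30 and 5 in KYSE510. PPFIA1 (336 CPM in KYSE30 and 1139 in KYSE510), DHCR7, NADSYN1 (224 and 699.8 CPM) and LTO1 (32.7 and 129.9 CPM) were higher in KYSE510. CCND1 and cortactin CTTN (1278 and 2203 CPM) were higher there by less than 2-fold, and FADD was equal at 155 and 153 CPM. The chloride channel ANO1 (100.1 CPM in KYSE30 and 12.04 in KYSE510), MYEOV (44.6 and 6.27 CPM) and SHANK2 (17.5 and 0.597 CPM), which lie among them, were higher in KYSE30. On 3q26 to 3q29, 6 of 21 genes were higher in KYSE30 and 2, TP63 and TFRC, in KYSE510. On 9p21 to 9p24, with 1 and 1 of 10 genes past 2-fold, SMARCA2 was at 8.86 and 0.810 CPM and KANK1 at 4.11 and 28.1 CPM.

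Genes listed in a single table were counted apart. The KYSE30 table alone listed 3539 genes, 215 of them at 1 CPM or more, and the KYSE510 table alone listed 3092, 129 of them at that level. The median level of these genes was 0.0265 CPM in KYSE30 and 0.0266 in KYSE510, which is around 2 reads. Besides those given above, well covered genes of KYSE30 included the neurofilament-like gene INA at 109.5 CPM, the zinc transporter SLC30A8 at 40.7, the neurofilament NEFH at 34.4, the GTPase-activating protein DLC1 at 33.4 and the checkpoint gene CHFR at 27.2. In KYSE510 they included the amino acid transporter SLC6A15 at 54.4, RARRES1 at 40.01 and the neurofilament NEFL at 31.7 CPM.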

How the data were processed

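Total RNA was extracted with Trizol, and libraries were made with an Illumina TruSeq kit. Per the labels, the submitters' processing notes name hg38 and DESeq. For the aligner, the counting program and the use of strand, the sources used here give nothing. The authors' deposited mean column is a signal: counts were divided by the size factor of their library and averaged over the 4 libraries of a line. Other deposited columns hold the authors' comparison of shLHX2 with shNC (fold change, standard error, statistic, p and adjusted p) and were not used. Of the rows, 1 of the KYSE510 table named no gene and was left out. The tables hold 0 columns of single libraries.

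Levels, differences and windows were computed with Python 3.11, pandas and SciPy after scaling each column to a sum of 1000000 (CPM), with a pseudocount of 1 and a minimum of 1 CPM in either line. The steps were tested on simulated data. Size factors were read from the recurring values of 1 read, and the Poisson intervals (95%) from the approximate reads that their mean in each line implies. Positions are those of GENCODE 29, and promoters those of RefSeq on GRCh38.p14.

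The comparison and its 53 gene lists were chosen with earlier results of these data known. Named genes are the 15 largest differences each way at 30 CPM or more, up to 6 members of each list, all members of lists of 13 or fewer, the 8 highest genes of each line, window members past 2-fold and 5 genes followed by the study. Further members of lists and windows were named after their values were seen. Alternatives were 2 other pseudocounts, 2 other level limits, 3 other scalings and 2 other window sizes. Some genes of these lists are not reported by name here.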

Additional observations from a re-analysis of the deposited data

How the results depend on the processing

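A pseudocount of 0.1 raised the genes at least 8-fold higher to 517 in KYSE30 and 521 in KYSE510, since low levels then count in full. A pseudocount of 10 lowered the genes at least 2-fold higher to 874 and 835 and those at least 8-fold higher to 36 and 60, set the overall median to 0.0361, and left 5 of 53 lists with a median past 2-fold, against 11, and 1 chromosome with a median past 0.3, against 4. Without a limit on level the overall median was 0.0194, 5 lists were past 2-fold and 0 chromosomes past 0.3. At 10 CPM it was 0.0213. Scaling without mitochondrially encoded genes gave a median of 0.104, as did scaling without the 100 highest genes of either line (0.1035). Windows of 10 genes reached 2.51, and the lowest median was -1.245 with 40 genes a window, against -1.97 with 20. The other counts stayed within 1.5 times of the main ones. Of 3115 values of single genes under the alternatives 719 left their counting interval, 543 of them with another pseudocount, and none with an absolute difference past 2-fold changed sign. The median of 7 lists changed sign under some setting. For S100 proteins, Wnt genes, genes of 9p21 to 9p24 and lymphoid and myeloid markers it did so with a limit of 10 CPM or none, and for interferon-stimulated genes, plasminogen activation and cadherins, whose medians were within 0.02 of 0, also or only with another scaling or limit.

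Leaving out a replicate was not possible, since the tables give no values of single libraries. No paired analysis was possible because each line has 1 pooled value per gene and no test was run. Counting error limits genes near single reads, and differences between libraries of a line add an error that these tables do not show.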
